A study of Mus musculus with 12 samples.

Results

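The 10 genes described here are linked to iron handling in the mouse liver. The hepcidin genes are Hamp and Hamp2, and the inputs and outputs of BMP-SMAD signalling are Bmp6, Id1 and Smad7. The others are the transferrin receptor genes Tfr2 and Tfrc, the transferrin gene Trf, the iron importer gene Slc39a14 and the iron exporter gene Slc40a1. These 10 genes were chosen by name, and their probes were found through the transcript accession that the array files give for each probe. All 10 were on the array, with 14 of its 56605 probes, and all 14 probes were well above background on 12 of 12 arrays, so that all 10 were among the 26405 genes tested. A gene with several probes was read from its brightest one.

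The study measured liver RNA of 12 male mice on one-colour Agilent arrays, 1 array per mouse and 3 mice in each of 4 groups. Mice were wild type or Akp3-/-, a knockout of an intestinal alkaline phosphatase (IAP) of the gut brush border, and were given as 7 weeks old. Each genotype received by mouth either IIAEK, a pentapeptide that the labels describe as lowering cholesterol, at 600 mg/kg per day, or vehicle, a 5 g/L solution of carboxymethylcellulose, once a day for 14 days. Livers were taken after a fast of 8 h, and the labels name no iron diet or iron measurement.

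Hepcidin, the product of Hamp, is a peptide hormone made by hepatocytes that binds ferroportin, the product of Slc40a1. It causes the breakdown of ferroportin, which holds iron inside cells. Its transcription is driven by BMP6 from liver endothelial cells through SMAD proteins, with Id1 and Smad7 as further SMAD targets, and by interleukin 6 through STAT3. Cells low in iron stabilise Tfrc mRNA through iron regulatory proteins, whereas Tfr2 is made mainly by hepatocytes and takes part in sensing transferrin-bound iron.

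The promoters of the hepcidin pair are shown to set the BMP and STAT motifs of these closely related genes side by side. The sequences are the 250 bases before each RefSeq start, on the minus strand of chromosome 7 in build GRCm38.p6, at chr7:30944030-30944279 for Hamp and chr7:30924182-30924431 for Hamp2. Capitals mark matches to GGCGCC, the core of the BMP-responsive element known in hepcidin promoters, and to TTCNNNGAA, the general STAT motif. Both strands were searched, each motif reads the same on both strands, and no matches overlapped.
Hamp: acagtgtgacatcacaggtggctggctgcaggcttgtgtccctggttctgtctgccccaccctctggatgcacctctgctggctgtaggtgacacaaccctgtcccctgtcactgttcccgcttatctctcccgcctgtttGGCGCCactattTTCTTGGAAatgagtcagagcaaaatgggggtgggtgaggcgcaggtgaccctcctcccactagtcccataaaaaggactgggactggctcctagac
Hamp2: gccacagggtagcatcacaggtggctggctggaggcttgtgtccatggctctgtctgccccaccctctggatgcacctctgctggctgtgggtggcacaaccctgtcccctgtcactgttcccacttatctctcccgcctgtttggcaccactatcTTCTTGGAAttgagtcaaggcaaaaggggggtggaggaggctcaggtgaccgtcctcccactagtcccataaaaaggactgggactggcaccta
Over 247 aligned positions without gaps, 227 were identical (91.9%) and 20 differed. Hamp held GGCGCC at bases 142 to 147, beginning 109 bases before its start. The aligned bases of Hamp2 read GGCACC, a difference of G145A with positions counted from 1 at the 5′ end of the Hamp window. Both windows held the STAT match TTCTTGGAA, at bases 154 to 162 of Hamp and 157 to 165 of Hamp2. GGCGCC occurred in 9.59% and TTCNNNGAA in 7.02% of 32851 RefSeq windows of this length. A match describes letters only.

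A level is the log2 processed signal with the 75th percentile of its array subtracted, so that 0 is the 75th percentile and 1 unit is a doubling. Values of different genes come from different probes and are not compared. The 75th percentile signal ranged from 453.6 to 758.5, and 58.7% to 63.6% of spots were well above background, with 0 saturated spots. The Akp3 probes were well above background in 0 of 24 measurements in wild-type and knockout liver, so this gene, known from the intestine, did not check the genotype labels. The 8 hepatocyte markers were well above background on every array. On the first principal component, which held 55.3% of the variance, 4 vehicle arrays (wild-type replicates 2 and 3, knockout replicates 1 and 3) lay at 74.0 to 88.1, and the other 8 at -57.2 to -11.3. The 10 exocrine pancreas markers stood a median 4.0 log2 units above their own means in wild-type vehicle replicate 1. In wild-type IIAEK replicate 1 they stood 0.99 above. The 9 small intestine markers stood a median 3.53 above theirs in wild-type vehicle replicate 2, and 0.96 in wild-type vehicle replicates 1 and 3. Differences without the 4 arrays, and without wild-type vehicle replicates 1 and 2, are given below as well. The latter fits keep wild-type vehicle replicate 3 and wild-type IIAEK replicate 1. Leaving out the 4 arrays that stood apart leaves 1 vehicle array in each genotype, which limma takes to vary like the other groups. In wild type that array is replicate 1, the one highest in pancreas markers. The 4 were picked from these same data and all are vehicle arrays, so smaller or turned IIAEK differences without them cannot be read as separate evidence on IIAEK. A component over all genes set them apart, and the share of all genes splitting between them and the other 8 was not counted. A split of an iron gene between these sets is therefore not shown to be particular to it. Leaving out wild-type vehicle replicates 1 and 2 leaves replicate 3, one of the 4, as the only wild-type vehicle array. Replicate 1 of every group was on slide 1 and replicates 2 and 3 on slide 2, and differences within each slide are given as well.

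**Figure D1:**
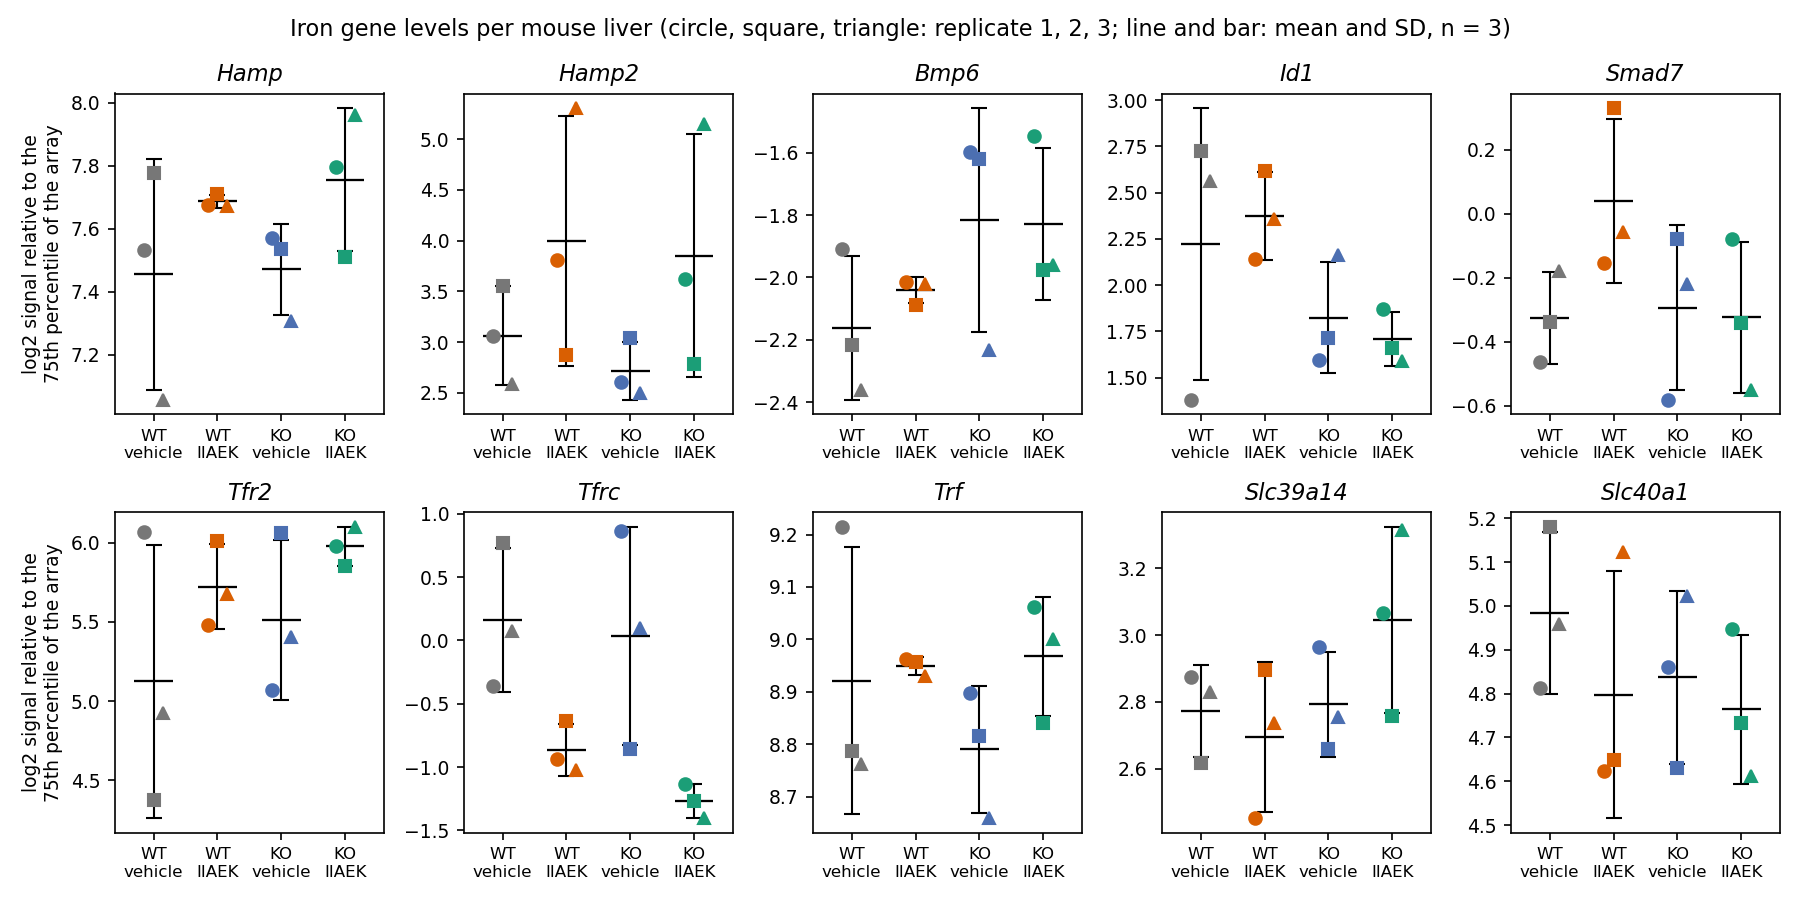
Levels of the 10 iron genes in each mouse liver, as log2 signal relative to the 75th percentile of the array, by group. Points are mice (circle, square and triangle for replicates 1, 2 and 3), and lines and bars are the mean and SD of 3 mice. In the Tfrc panel the IIAEK mice of each genotype lie below all vehicle mice of that genotype, and in the Hamp2 panel replicate 3 of both IIAEK groups lies above 5.

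No iron gene passed an adjusted p of 0.05 in limma in any of the 7 comparisons: IIAEK against vehicle in each genotype, knockout against wild type under each treatment, the interaction, and the averages over genotype and over treatment. In wild type, IIAEK called 0.00379% of all genes (1 gene), and 1 of the 10 iron genes had an unadjusted p under 0.05, against 12.6% of all genes. In the knockout, IIAEK called 0% of all genes, and 1 of the 10 had an unadjusted p under 0.05, against 6.46% of all genes. Averaged over genotype, IIAEK called 0% of all genes, and 2 of the 10 (Tfrc and Hamp2) had an unadjusted p under 0.05, against 22.8%. The knockout called 0.00379% of all genes under vehicle and 0.00757% under IIAEK, where 0 of the 10 had an unadjusted p under 0.05, against 6.87% and 7.88% of all genes. Averaged over treatment, the knockout called 0.0189% of all genes, and 1 of the 10 (Id1) had an unadjusted p under 0.05, against 16.5%. The interaction called 0%, and 0 of the 10 had an unadjusted p under 0.05, against 1.62% of all genes. Under vehicle, 0 of the 10 genes had genotypes without overlap, beside 2.85% (knockout higher) and 5.79% (knockout lower) of all genes. With IIAEK in the knockout, 0 of the 10 were higher without overlap, beside 9.54% of all genes. The median difference of the 10 genes was 0.14 with IIAEK in wild type and 0.08 in the knockout, beside 0.03 and 0.05 over all genes. Without the 4 arrays that stood apart these medians were -0.07 and 0.06, beside -0.02 and 0.00 over all genes. Without wild-type vehicle replicates 1 and 2 the wild-type median was 0.20, beside 0.10 over all genes.

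Hamp, the main hepcidin gene, differed little between the groups. It stood at 7.53, 7.78 and 7.06 in wild-type vehicle mice and at 7.68, 7.71 and 7.67 in wild-type IIAEK mice. The knockout vehicle mice had 7.57, 7.54 and 7.31, and the knockout IIAEK mice 7.80, 7.51 and 7.96. The lowest value was that of wild-type vehicle replicate 3, and the groups overlapped in both genotypes. The order of the Hamp group means was knockout IIAEK, wild-type IIAEK, knockout vehicle and wild-type vehicle, and no step of it exceeded the pooled SD of 0.23. The difference with IIAEK was 0.23 ± 0.19 (SE; 0.14 on slide 1 and 0.27 on slide 2) in wild type and 0.28 ± 0.19 (0.22 and 0.31) in the knockout, with limma adjusted p of 0.586 and 0.657. Averaged over genotype it was 0.26, with a 95% interval of -0.04 to 0.56, and 0.46 without wild-type vehicle replicates 1 and 2. The wild-type difference was 0.03 without wild-type vehicle replicate 3, 0.39 without replicate 2, and 0.63 without replicates 1 and 2. The last of these left replicate 3, the lowest mouse, as the only wild-type vehicle array.

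Hamp2, the second hepcidin gene of the mouse, was high in 2 livers. Its levels were 3.06, 3.55 and 2.58 in wild-type vehicle mice and 3.81, 2.87 and 5.31 in wild-type IIAEK mice. They were 2.61, 3.04 and 2.50 in knockout vehicle mice and 3.62, 2.79 and 5.15 in knockout IIAEK mice. Replicate 3 of both IIAEK groups stood above every other mouse, and the groups overlapped otherwise. Hamp in the same livers was 7.67 and 7.96, the former within the range of the wild-type vehicle mice. The Hamp2 difference with IIAEK was 0.93 ± 0.65 (0.75 on slide 1 and 1.02 on slide 2) in wild type and 1.14 ± 0.65 (1.01 and 1.20) in the knockout, with limma adjusted p of 0.510 and 0.656. Without the replicate 3 mouse of the IIAEK group it was 0.27 in wild type and 0.49 in the knockout, and the wild-type value was 1.41 without wild-type vehicle replicates 1 and 2. The latter left wild-type vehicle replicate 3, at 2.58, as the only array of that group. Averaged over genotype the Hamp2 difference was 1.03 (95% interval 0.02 to 2.04, limma adjusted p 0.213). The step from the lower IIAEK mean to the higher vehicle mean was 0.79, below the pooled SD of 0.90. Whether the probes of the hepcidin pair also bind each other's RNA was not tested.

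**Figure D2:**
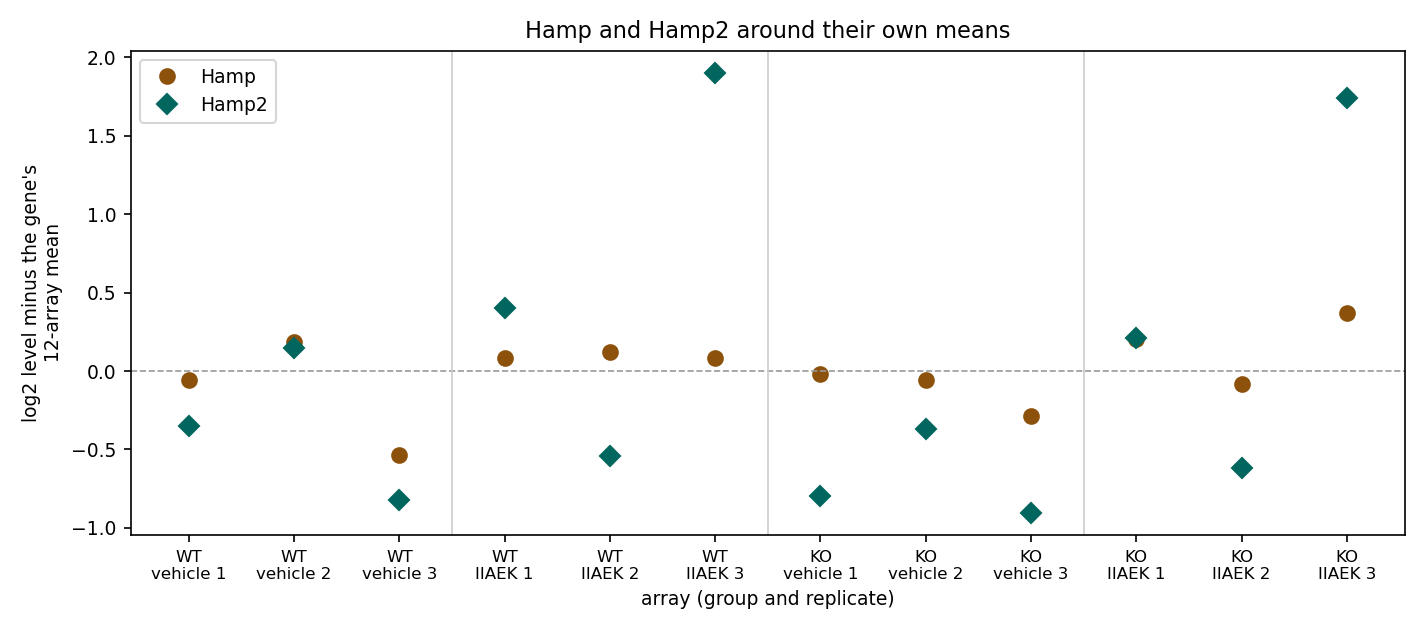
Hamp (circles) and Hamp2 (diamonds) on each of the 12 arrays, as log2 level minus the mean of that gene over the 12 arrays; vertical lines part the 4 groups. The highest Hamp2 points are replicate 3 of both IIAEK groups, at levels of 5.31 and 5.15, where Hamp stood at 7.67 and 7.96.

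Bmp6, the ligand that drives hepcidin, had its higher levels in the knockout. It stood at -1.91, -2.22 and -2.36 in wild-type vehicle mice and at -2.01, -2.09 and -2.02 in wild-type IIAEK mice. The knockout mice had -1.60, -1.62 and -2.23 with vehicle and -1.55, -1.98 and -1.96 with IIAEK. Under IIAEK the genotypes did not overlap, with the knockout higher, as for 12.9% of all genes, and under vehicle they overlapped through knockout replicate 3. The knockout difference was 0.21 ± 0.20 under IIAEK (limma adjusted p 0.753; 0.47 on slide 1 and 0.09 on slide 2), and 0.07 without knockout IIAEK replicate 1. Averaged over treatment it was 0.28 ± 0.14 (limma adjusted p 0.346; 0.39 and 0.22 by slide). The mean step between the genotypes was 0.21, below the pooled SD of 0.25. All 10 markers of liver sinusoidal endothelial cells were well above background on every array. Their summed level (log2) ranged from 5.69 to 6.18 in wild-type vehicle, 6.10 to 6.18 in wild-type IIAEK, 5.88 to 6.13 in knockout vehicle and 6.03 to 6.09 in knockout IIAEK livers, and its part in Bmp6 was not tested. On the 4 arrays that stood apart this summed level was 5.69 to 5.89, below the 6.03 to 6.18 of the other 8. Relative to each marker's own mean, however, the list median overlapped. It was -0.31 to 0.12 on the 4 arrays and -0.11 to 0.14 on the other 8. In such bulk samples fewer cells of a type and less RNA per cell cannot be told apart.

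Id1, a transcription regulator and direct target of BMP-SMAD signalling, was lower on average in the knockout. Its levels were 1.38, 2.72 and 2.56 in wild-type vehicle mice and 2.14, 2.62 and 2.36 in wild-type IIAEK mice. Knockout mice had 1.59, 1.72 and 2.16 with vehicle and 1.87, 1.66 and 1.59 with IIAEK. Under IIAEK every knockout mouse was below every wild-type mouse, as for 14.9% of all genes, whereas wild-type vehicle replicate 1 was the lowest of all 12. The difference under IIAEK was -0.67 ± 0.32 (limma adjusted p 0.625; -0.27 on slide 1 and -0.86 on slide 2). Averaged over treatment it was -0.53 ± 0.22 (95% interval -1.03 to -0.04, limma p 0.0366 and adjusted p 0.284), with -0.03 on slide 1 and -0.78 on slide 2. Leaving out the 4 arrays that stood apart gave -0.17. With IIAEK the Id1 difference was 0.15 ± 0.32 in wild type (0.76 on slide 1 and -0.16 on slide 2). It was 0.99 without the 4 arrays, where wild-type vehicle replicate 1, high in pancreas markers, was the only wild-type vehicle array left. It was -0.19 without wild-type vehicle replicates 1 and 2, where replicate 3 was the only array left of that group. The average over genotype was 0.02 with all arrays (0.52 on slide 1 and -0.24 on slide 2) and 0.49 without the 4. The average knockout differences of Bmp6 and Id1 had opposite signs, but neither passed after adjustment. The 95% interval of Bmp6, -0.04 to 0.60, included 0, and the Id1 difference was near 0 on slide 1. What the signs mean for the pathway was not tested.

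Smad7, the inhibitory SMAD that dampens the pathway, was highest in wild-type IIAEK mice. It stood at -0.46, -0.34 and -0.18 in wild-type vehicle mice and at -0.15, 0.33 and -0.06 in wild-type IIAEK mice, which did not overlap. Such higher values without overlap were found for 7.09% of all genes. The knockout groups lay at -0.58, -0.08 and -0.22 with vehicle and -0.08, -0.34 and -0.55 with IIAEK, and overlapped. The wild-type difference was 0.37 ± 0.19 (limma adjusted p 0.414; 0.31 and 0.40 by slide), and 0.22 without wild-type IIAEK replicate 2 or without wild-type vehicle replicates 1 and 2. The interaction was -0.40 ± 0.27 (limma p 0.176, adjusted p 1.0), with 0.19 on slide 1 and -0.69 on slide 2. It was -0.75 without the 4 arrays that stood apart and -0.25 without wild-type vehicle replicates 1 and 2. The other Smad7 probe gave 0.25 in wild type and an interaction of 0.09, so the probes disagreed on the sign of the interaction. Under IIAEK the knockout difference was -0.36 (limma adjusted p 0.629), with 0.07 on slide 1 and -0.58 on slide 2.

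Tfrc, the receptor through which most cells take up transferrin-bound iron, was lower in every IIAEK mouse than in any vehicle mouse of the same genotype. It stood at -0.36, 0.77 and 0.07 in wild-type vehicle mice and at -0.93, -0.63 and -1.03 in wild-type IIAEK mice. The knockout vehicle mice had 0.87, -0.85 and 0.10, and the knockout IIAEK mice -1.13, -1.27 and -1.40. Values lower without overlap were found for 5.85% of all genes in wild type and 5.91% in the knockout, and in both genotypes for 0.701% (185 genes). Wild-type vehicle replicate 1 and knockout vehicle replicate 2 were the lowest vehicle mice, and were the vehicle mice outside the 4 arrays that stood apart.

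The Tfrc difference was -1.03 ± 0.39 in wild type (limma p 0.0239, adjusted p 0.395) and -1.31 ± 0.39 in the knockout (limma p 0.00675, adjusted p 0.656). By slide it was -0.57 and -1.25 in wild type and -2.00 and -0.96 in the knockout. Averaged over genotype it was -1.17 ± 0.28, or 2.24-fold lower (95% interval -1.78 to -0.56, limma p 0.00151, adjusted p 0.181), and the interaction was -0.28 (limma p 0.623), or 0.09 without the 4 arrays that stood apart. The call depended on single arrays: the average was -1.30 with an adjusted p of 0.0149 without wild-type vehicle replicate 1, and -1.39 with 0.0314 without knockout vehicle replicate 2. The first of these fits called 3334 of 26405 genes higher and 3171 lower, and the second 1225 and 1296, against 0 with all arrays. Leaving out the 4 arrays that stood apart gave a Tfrc average of -0.46, with -0.50 in wild type and -0.41 in the knockout. The other Tfrc probe gave -1.02 in wild type and -1.15 in the knockout. Under IIAEK the knockout lay below the wild type without overlap, as for 14.9% of all genes, with a difference of -0.40 ± 0.39 (limma adjusted p 0.753; -0.20 and -0.51 by slide).

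Tfrc is also abundant in red cell precursors and is made by macrophages. The summed level of the 10 Kupffer cell and macrophage markers, all well above background on every array, ranged from 6.85 to 8.40 in wild-type vehicle, 6.52 to 7.61 in wild-type IIAEK, 6.88 to 8.19 in knockout vehicle and 6.47 to 7.30 in knockout IIAEK livers. That of the 8 red cell markers ranged from 7.95 to 9.55, 8.38 to 9.89, 8.53 to 9.55 and 7.64 to 7.94 in the same order. Between 6 and 8 of the 8 red cell markers were well above background per array, with Epb42 so on 1 of 12 arrays. The Kupffer cell and macrophage level was 8.05 to 8.40 on the 4 arrays that stood apart, which also had the highest Tfrc and Hmox1, and 6.47 to 7.61 on the other 8. The red cell level was 9.29 to 9.55 on those 4 arrays and 7.64 to 9.89 on the other 8. The part of either list in the Tfrc and Hmox1 values was not tested.

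Tfr2, the hepatocyte transferrin receptor, had values of 6.07, 4.38 and 4.93 in wild-type vehicle mice and 5.48, 6.01 and 5.68 in wild-type IIAEK mice. The knockout mice had 5.07, 6.06 and 5.40 with vehicle and 5.98, 5.85 and 6.10 with IIAEK. The groups overlapped in both genotypes: wild-type vehicle replicate 1 was above all 3 wild-type IIAEK mice, and knockout vehicle replicate 2 was above 2 of the 3 knockout IIAEK mice. The 4 arrays that stood apart had the lowest Tfr2 (4.38 to 5.41, against 5.48 to 6.10) and the highest Tfrc (0.07 to 0.87, against -1.40 to -0.36). The share of all genes with such a split was not counted. The difference with IIAEK was 0.60 ± 0.38 in wild type (limma adjusted p 0.477; -0.59 on slide 1 and 1.19 on slide 2) and 0.46 ± 0.38 in the knockout (limma adjusted p 0.673; 0.91 and 0.24). Averaged over genotype it was 0.53 ± 0.27 (limma adjusted p 0.258). Without wild-type vehicle replicate 1 it was 1.07 in wild type (limma adjusted p 0.0387) and 0.77 on average (limma adjusted p 0.0219). That fit called 1714 of 26405 genes higher and 2194 lower in wild type, and 3334 and 3171 on average. Without the 4 arrays that stood apart the sign of the Tfr2 difference turned, with -0.35 in wild type, -0.09 in the knockout and -0.22 on average.

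**Figure D3:**
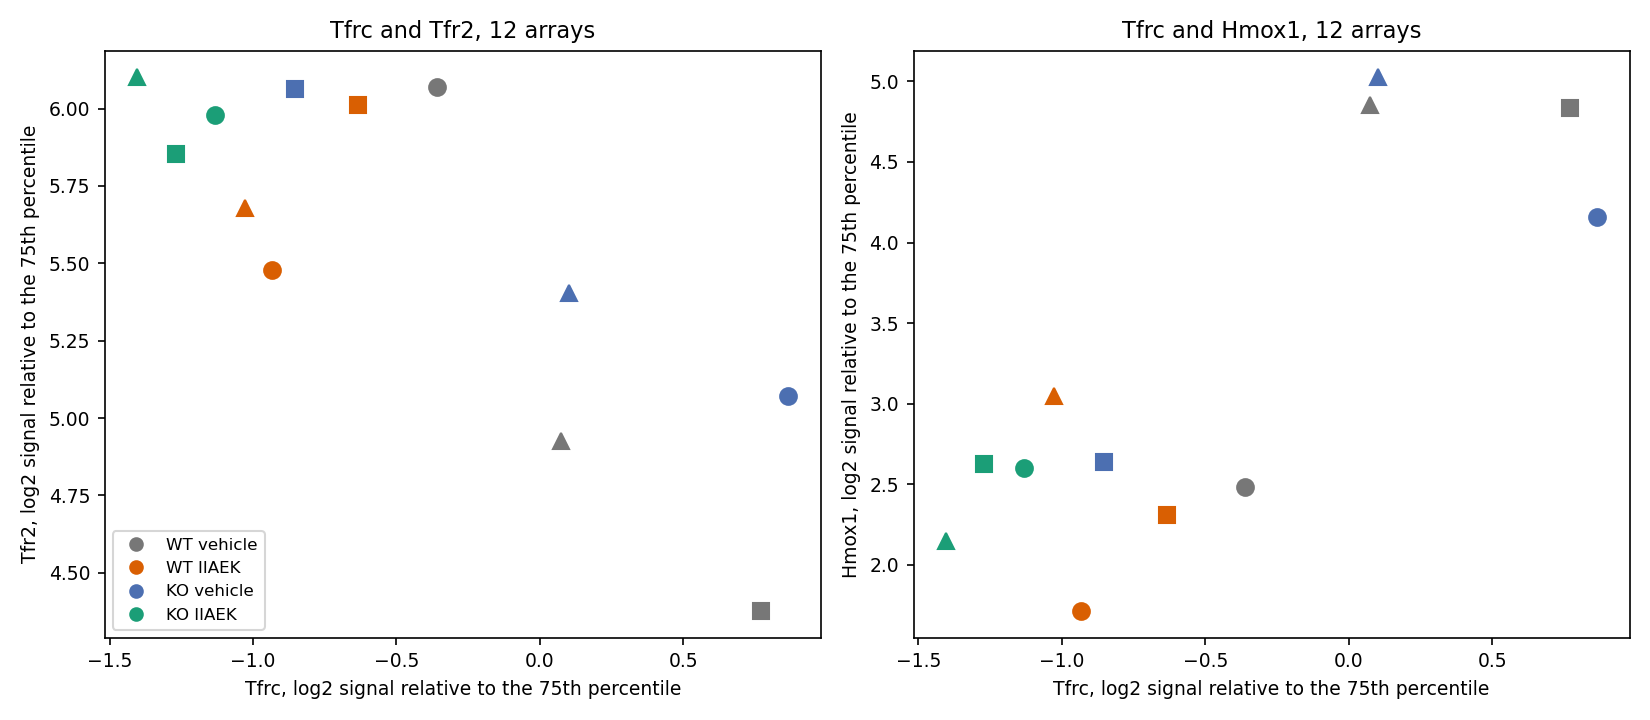
Tfrc against Tfr2 (left) and against the heme oxygenase gene Hmox1 (right) on the 12 arrays, all as log2 signal relative to the 75th percentile; colours are groups and circle, square and triangle are replicates 1, 2 and 3. The 4 vehicle arrays that stood apart lie at Tfrc levels of 0.07 to 0.87, with Tfr2 at 4.38 to 5.41 and Hmox1 at 4.16 to 5.02.

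Trf encodes transferrin, the iron carrier of plasma, and its levels varied little. It ranged from 8.76 to 9.22 in wild-type vehicle, 8.93 to 8.96 in wild-type IIAEK, 8.66 to 8.90 in knockout vehicle and 8.84 to 9.06 in knockout IIAEK livers. The average difference with IIAEK was 0.10 (95% interval -0.14 to 0.34), and its sign turned under quantile normalization. Slc39a14 encodes ZIP14, which takes up iron not bound to transferrin. Its levels were 2.88, 2.62 and 2.83 in wild-type vehicle, 2.45, 2.90 and 2.74 in wild-type IIAEK, 2.96, 2.66 and 2.75 in knockout vehicle and 3.06, 2.76 and 3.31 in knockout IIAEK livers, and all groups overlapped. Its knockout difference was 0.35 ± 0.18 under IIAEK (limma p 0.0812, adjusted p 0.628; 0.61 and 0.22 by slide), and 0.22 without knockout IIAEK replicate 3. Averaged over treatment the Slc39a14 difference was 0.18, and the interaction was 0.33 (limma p 0.225). These were 0.07 and 0.57 without the 4 arrays that stood apart.

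Slc40a1 encodes ferroportin, the exporter that hepcidin acts on. It ranged from 4.81 to 5.18 in wild-type vehicle, 4.62 to 5.12 in wild-type IIAEK, 4.63 to 5.02 in knockout vehicle and 4.61 to 4.95 in knockout IIAEK livers. All groups overlapped, and the average difference with IIAEK was -0.13 (95% interval -0.42 to 0.16). The average differences with IIAEK of the remaining genes were 0.09 for Slc39a14, 0.05 for Bmp6 and 0.17 for Smad7. Without the 4 arrays that stood apart the average was -0.06 for Trf, 0.06 for Slc40a1 and -0.17 for Bmp6, so that the sign of each turned. Without wild-type vehicle replicates 1 and 2 it was 0.18 for Trf, 0.15 for Bmp6 and 0.09 for Smad7. The 95% interval of the Id1 difference, -0.48 to 0.51, was wider than that of Trf, Slc40a1, Slc39a14, Bmp6 or Smad7. Interaction p-values of the 10 genes in limma lay between 0.176 and 0.849. An unadjusted interval that includes 0 does not show that a level was the same.

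**Figure D4:**
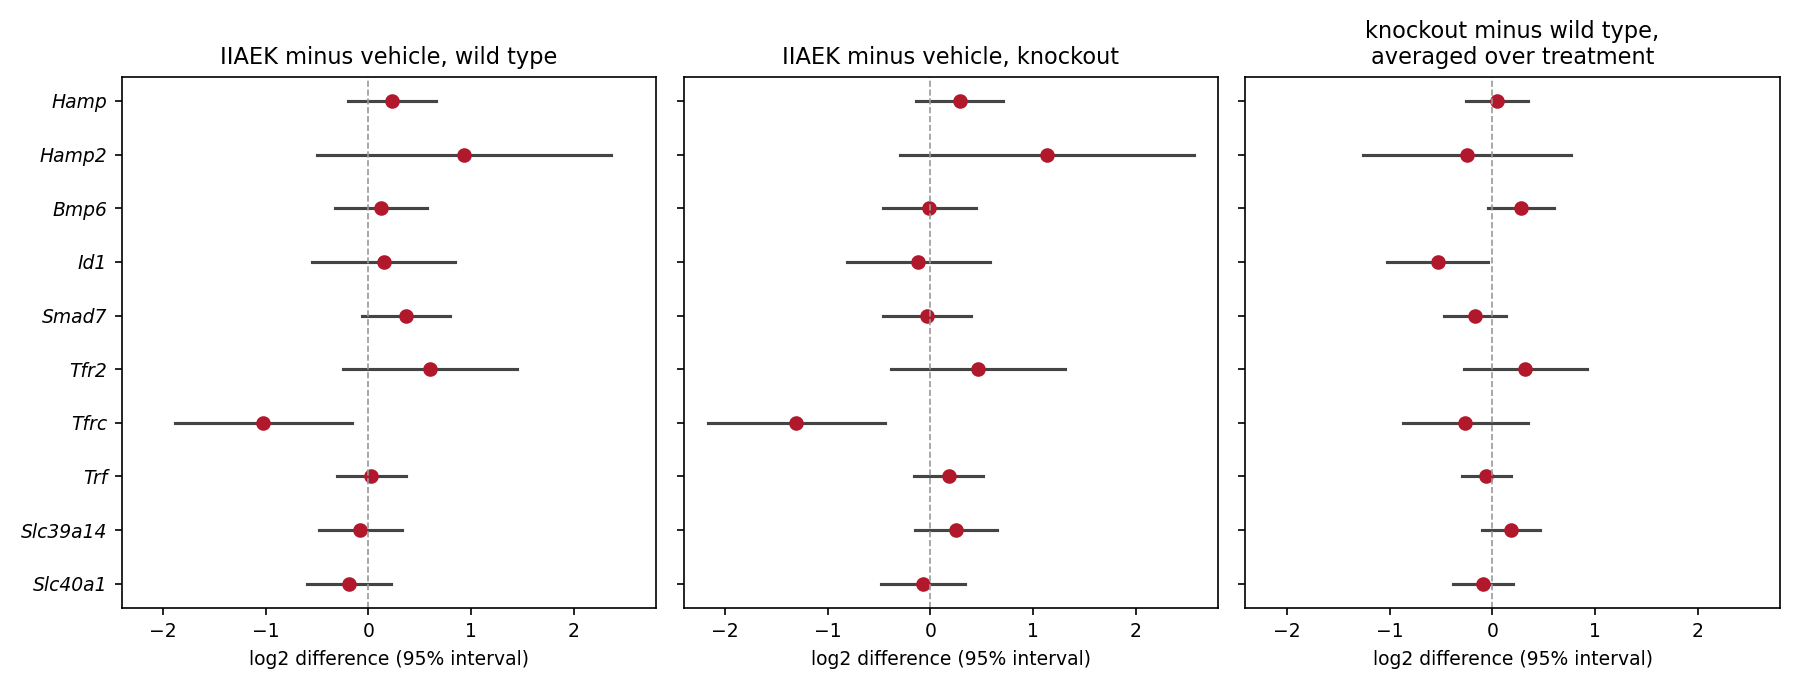
Differences of the 10 iron genes on the log2 scale for IIAEK minus vehicle in wild type (left) and in the knockout (middle) and for knockout minus wild type averaged over treatment (right); points are estimates and lines their unadjusted 95% intervals from limma. The Tfrc intervals with IIAEK and the Id1 interval for the knockout lie below 0, and none of these passed after adjustment.

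Of the lists of related genes, none had a member that passed in any of the 7 comparisons. Among the 20 tested genes of BMP-SMAD input (of 21, with Erfe too dim in every group), 16 had a higher and 4 a lower value with IIAEK in wild type, at a median of 0.15, and 14 and 6 in the knockout, at 0.14, beside medians of 0.03 and 0.05 over all genes. Without the 4 arrays that stood apart the split was 6 and 14 in wild type (median -0.12) and 7 and 13 in the knockout (median -0.06), so that the majority turned. Without wild-type vehicle replicates 1 and 2 it was 17 and 3 in wild type (median 0.26, beside 0.10 over all genes). Bmp4, another ligand of the pathway, stood at -0.45 to -0.28 in wild-type vehicle, -0.40 to 0.39 in wild-type IIAEK, 0.01 to 0.66 in knockout vehicle and 0.31 to 0.51 in knockout IIAEK livers. Under vehicle the genotypes did not overlap for Bmp4, with the knockout higher, as for 2.85% of all genes. The average knockout difference of Bmp4 was 0.60 ± 0.16 (limma adjusted p 0.229). Smad6, an inhibitory SMAD and a target of the pathway, stood at -1.30 to -0.74 in the 6 wild-type livers. In the 6 knockout livers it stood at -0.66 to -0.43, and the share of all genes with such a split was not counted. The average knockout difference of Smad6 was 0.48 ± 0.13 (limma adjusted p 0.229), and 0.35 without the 4 arrays that stood apart.

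Of the 9 BMP-SMAD target genes, Hamp, Id1 and Smad7 among them, 8 had a higher and 1 a lower value with IIAEK in wild type (median 0.23), and 5 and 4 in the knockout (median 0.01). The split was 7 and 2 in wild type and 2 and 7 in the knockout without the 4 arrays. Without wild-type vehicle replicates 1 and 2 it was 8 and 1 in wild type. Id3, a relative of Id1, stood at 1.71, 1.90 and 2.26 in wild-type vehicle and at 3.06, 2.83 and 2.44 in wild-type IIAEK livers. These did not overlap, as for 7.09% of all genes (higher with IIAEK), and the Id3 difference was 0.82 ± 0.24 (limma adjusted p 0.395). Of the 10 genes of interleukin 6, STAT3 and activin B input, 3 had a higher and 7 a lower value in wild type (median -0.15), and 5 and 5 in the knockout (median -0.07). It was 5 and 5 in wild type and 3 and 7 in the knockout without the 4 arrays. Without wild-type vehicle replicates 1 and 2 it was 2 and 8 in wild type. Inhbb, which encodes the activin B subunit, stood at 0.45 to 0.82 in wild-type vehicle, -0.08 to 0.42 in wild-type IIAEK, -0.69 to 0.86 in knockout vehicle and -1.27 to -0.76 in knockout IIAEK livers. Under IIAEK every knockout liver was below every wild-type liver, as for 14.9% of all genes. The average knockout difference of Inhbb was -0.92 ± 0.23 (limma adjusted p 0.229). Il6 was well above background on 2 of 3 wild-type IIAEK and 0 of 3 knockout IIAEK arrays, with measured means of -4.99 and -7.16. Under vehicle it was so on 2 of 3 wild-type and 3 of 3 knockout arrays, with means of -5.07 and -5.40. Only through knockout vehicle did Il6 enter the genes tested. The measured knockout difference under IIAEK had a limma adjusted p of 0.452. With the knockout IIAEK arrays set to the lowest signal well above background on each, or their own where higher, Il6 was 1.67-fold lower there. The wild-type IIAEK mean includes replicate 1, at -5.90 and not well above background itself, so 1.67 is not a firm lower bound. Over the alternatives the log2 difference ran from -2.63 to -0.46.

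Of the 14 genes of iron and heme uptake, which include Tfrc, Trf and Slc39a14, 5 had a higher and 9 a lower value with IIAEK in wild type (median -0.12), and 8 and 6 in the knockout (median 0.10). Leaving out the 4 arrays gave 4 and 10 in wild type and 10 and 4 in the knockout. Leaving out wild-type vehicle replicates 1 and 2 gave 5 and 9 in wild type. Lrp1, a receptor that takes up heme bound to hemopexin, had an average knockout difference of 0.66 ± 0.19 (limma adjusted p 0.229), and 0.44 without the 4 arrays that stood apart. Of the 12 genes of iron storage and export, 6 had a higher and 6 a lower value in wild type (median -0.06), and 5 and 7 in the knockout (median -0.07). These were 7 and 5 in wild type and 6 and 6 in the knockout without the 4 arrays. The wild-type split was 5 and 7 without wild-type vehicle replicates 1 and 2. Hmox1, which opens the heme ring and frees its iron, stood at 4.16 to 5.02 on the 4 arrays that stood apart and at 1.71 to 3.05 on the other 8. Its average difference with IIAEK was -1.59 ± 0.49 (limma adjusted p 0.181), and -0.15 without those 4 arrays. It was -1.98 with an adjusted p of 0.0145 without wild-type vehicle replicate 1, and -1.91 with 0.0387 without knockout vehicle replicate 2. Leaving out wild-type vehicle replicates 1 and 2 together, with replicate 3 the only wild-type vehicle array left, gave -1.99. Blvrb, which encodes a biliverdin reductase, had an average difference of 0.67 ± 0.18 (limma adjusted p 0.181), and 0.20 without the 4 arrays. It was 0.75 with an adjusted p of 0.0193 and 0.83 with 0.0314 without the same single arrays in turn. These 2 fits called 3334 of 26405 genes higher and 3171 lower, and 1225 higher and 1296 lower, in the same order.

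Of the 12 genes of iron sensing and mitochondrial iron use, 11 had a higher and 1 a lower value with IIAEK in wild type, and likewise in the knockout, with medians of 0.30 and 0.21 beside 0.03 and 0.05 over all genes. Without wild-type vehicle replicates 1 and 2 the split was 12 and 0 in wild type, with a median of 0.44 beside 0.10 over all genes. Without the 4 arrays that stood apart the split was 7 and 5 in wild type and 5 and 7 in the knockout, with medians of 0.03 and -0.03. Relative to each gene's own mean, the list median was -0.31 to -0.17 on those 4 arrays and 0.01 to 0.23 on the other 8, the remaining vehicle arrays included. Fech, ferrochelatase, which places iron into heme, stood at 3.62 to 3.99 on the 4 arrays that stood apart and at 4.37 to 4.54 on the other 8. Its average difference was 0.42 ± 0.16 (limma adjusted p 0.186), 0.53 with an adjusted p of 0.0251 without wild-type vehicle replicate 1, and -0.0017 without the 4 arrays. Without wild-type vehicle replicate 1 the average called 3334 of 26405 genes higher and 3171 lower.

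The genes most alike in pattern were taken as those with the smallest root mean square difference from the member over the 12 arrays, with each gene centred on its own mean, among 23564 genes well above background on all 12 arrays. For Hamp, whose own spread was 0.23, the named ones were Tlcd1 (0.11) and Bmx (0.12), beside probes without a gene symbol, and the median over all genes was 0.34. For Tfrc, with a spread of 0.74, they were Krt19 (0.25), 1700029J07Rik (0.26), Fosl2 (0.26) and Cebpd (0.27), against a median of 0.81. For Id1 none of the 4 closest (0.20 to 0.21, against a median of 0.54) had a gene symbol.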

How the data were processed

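Liver RNA of 12 mice was measured on Agilent one-colour (Cy3) arrays. Per the file headers, the authors read them with Feature Extraction 10.7.3.1, and the deposited processed signal is an intensity from which the background was subtracted. The deposited series table holds log2 values that matched log2 signals shifted to the 75th percentile and centred per probe (r 0.9997 to 0.9999), and was used as an alternative. Control and non-uniform spots were left out, spots of a probe were averaged, log2 was taken and the 75th percentile of each array subtracted. RefSeq transcripts named 32994 of 56605 probes. The headers give build mm9, so other-build coordinates were printed only for the RefSeq promoters. Genes well above background on all 3 arrays of any group (26405) were tested two-sided with limma 3.58.1 in R 4.3.3, with 1 mean per group, 8 residual degrees of freedom and Benjamini-Hochberg adjustment over all genes (threshold 0.05). The scripts were tested on simulated data. The number of arrays limits the precision. All 10 genes are named, and of each list the members that passed or, where none did, the 2 with the smallest p, except that some items are not reported here. The members and lists were chosen with earlier results of these data known. Per the labels, replicates were separate mice. A label field gives weeks where others give days, and 14 days was used.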

Additional observations from a re-analysis of the deposited data

How the results depend on the processing

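Over 70 differences (10 iron genes in 7 comparisons) and 24 alternatives, 1575 of 1680 values kept their sign and their side of the threshold, 4 newly passed and 101 turned sign. The alternatives were another background correction, normalization, dim-probe filter, probe rule, variance model, series table, slide as a block, slide 2 alone, each array left out, and, chosen with earlier results of these data known, leaving out the 4 arrays that stood apart or wild-type vehicle replicates 1 and 2. The count of iron genes called ranged from 0 to 1 for IIAEK in wild type and from 0 to 2 for its average over genotype when arrays were left out one at a time. Leaving out wild-type vehicle replicate 1 called 1714 of all 26405 genes higher and 2194 lower in wild type, and 3334 and 3171 on average. Leaving out knockout vehicle replicate 2 called 1225 higher and 1296 lower on average. Without the 4 arrays that stood apart, the sign turned for Tfr2 (-0.35 in wild type, -0.085 in the knockout, -0.22 on average) and for the average IIAEK differences of Trf (-0.057), Slc40a1 (0.059), Bmp6 (-0.17) and Fech (-0.0017). Under quantile normalization that of Trf was -0.054. For Id1 it was -0.034 with normexp, -0.054 with quantile normalization, -0.24 on slide 2 alone and -0.16 without wild-type vehicle replicates 1 and 2, but 0.49 without the 4 arrays that stood apart, and between -0.20 and 0.14 with single arrays left out, against -0.049 to 0.12 for Bmp6. The wild-type IIAEK difference of Id1 was -0.16 on slide 2 alone, -0.19 without wild-type vehicle replicates 1 and 2, and between -0.27 and 0.40 with single arrays left out. The Tfrc interaction was 0.29 on slide 2 alone, 0.091 without the 4 arrays that stood apart, and between -0.73 and 0.13 with single arrays left out. The cause of these turns was not tested. Over all genes, replicate numbers gave no clear pairing: the 18 same-number pairs correlated from -0.55 to 0.65, with 8 over 0.1. The 36 different-number pairs correlated from -0.69 to 0.78, with 15 over 0.1. Hamp2 levels nevertheless ran in the same order of replicate numbers in both genotypes under each treatment. With slide as a block 0 iron genes were called, and the adjusted p of the average Tfrc difference in limma was 0.198. With the replicate block 0 iron genes were called in each comparison, and that adjusted p was 0.237.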
